A study of Mus musculus with 6 samples.

Results

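The 42 genes described here encode the enzymes and the sulfate transporter that build, sulfate and trim glycosaminoglycan chains in chondrocytes. They were chosen by name, as a list of known enzymes grouped by step of synthesis, and all 42 were among the 23159 genes of the count table. By step, they comprised 1 gene of nucleotide sugar supply, 3 of sulfate supply, 5 of the linker tetrasaccharide, 6 of the chondroitin chain, 9 of chondroitin and dermatan sulfation, 5 of the heparan chain, 8 of heparan modification, 2 heparan 6-O-endosulfatases and 3 hyaluronan synthases. Of these, 39 passed the filter on low counts and were tested, among 13728 genes tested in all.

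RNA was sequenced from label-retaining chondrocytes (LRCs) and non-LRCs of Col2-Q mice at postnatal day (P) 49, with 3 libraries in each group. All mice were homozygous for 4 transgenes, Col2a1-tTA (at Peli2), TRE-H2B-GFP (at Col1a1), Col2a1-creER and R26R-tdTomato, so that both groups carried all of these. They received doxycycline from P21 to P49, which shuts off H2B-GFP so that dividing cells dilute the nuclear label, and tamoxifen on P46 and P47, which switches on tdTomato in cells that use the Col2a1 promoter. Cells were freed by collagenase from the distal femoral and proximal tibial growth plates and sorted as CD45-, tdTomato+ cells, with LRCs in the H2B-GFP(high) gate and non-LRCs in the H2B-GFP(mid-low) gate. Each library held about 10000 LRCs or about 50000 non-LRCs, pooled from littermates of 1 of 3 independent experiments, and an LRC and a non-LRC library of the same experiment formed a pair. Both marks were driven by Col2a1 transgenes, although the TRE-H2B-GFP cassette can be weakly active in bone cells without tTA, and the study's sorting methods name CD45 and GFP gates while the labels add tdTomato.

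Glycosaminoglycans are long sugar chains, and chondroitin, dermatan and heparan sulfate are made in the Golgi on a core protein through a common linker of 4 sugars. Keratan sulfate is built on other glycans, and hyaluronan has no core protein. The first amino sugar added after the linker commits the chain to chondroitin or to heparan sulfate, and sulfotransferases then add sulfate from the donor PAPS (phosphoadenosine phosphosulfate) at defined positions. In cartilage, chondroitin sulfate on aggrecan holds water and resists compression, whereas heparan sulfate binds growth factors and hyaluronan anchors aggrecan in the matrix. Cartilage draws heavily on sulfate uptake, and inherited loss of several of these genes, including SLC26A2, PAPSS2, CHST3 and CHST11, causes skeletal dysplasia in humans.

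Total counts were between 18943789 and 129559872 per library. The smallest library was that of LRCs in experiment 2, in which 1 count was worth 0.0478 CPM (counts per 1000000, after TMM normalization) and a gene with 0 counts could have a level of up to 0.143 CPM (3 counts). This limit takes account of counting error alone, because reads of amplified cDNA carried no molecular identifiers. The same library had the lowest levels of *Col2a1* and *Acan*, and for members described by library the fitted value without experiment 2 is therefore also given where it moved by over 1.5 times. Markers of growth plate chondrocytes were present, 12 of 12 in every library, with summed levels of 90630 to 242400 CPM in LRCs and 147800 to 259900 CPM in non-LRCs, whereas *Ptprc*, which encodes CD45, was at 0 in 5 of the 6 libraries and *Cdh5*, *Kdr* and *Emcn*, which mark endothelium, had 0 counts in all. Superficial articular and synovial markers differed between the groups. Their summed level was 1459 to 3034 CPM in LRCs and 123.8 to 190.1 CPM in non-LRCs, and 4 of the 6 tested passed the test (*Prg4*, *Cilp*, *Clu* and *Thbs4*), all higher in LRCs. Hypertrophic markers summed to 825.6 to 1959 CPM in LRCs and 1020 to 2970 CPM in non-LRCs, with *Panx3* the 1 that passed, lower in LRCs. In bulk samples of this kind, fewer cells of a type and less RNA per cell cannot be told apart.

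Of the 39 enzymes tested, 2 differed between LRCs and non-LRCs, and both were higher in LRCs: *Ust*, the uronyl 2-O-sulfotransferase of dermatan and chondroitin sulfate, by 2.38-fold, and *Sulf2*, the extracellular endosulfatase that removes 6-O-sulfate from heparan sulfate, by 3.06-fold (edgeR quasi-likelihood test with the experiment as a block, Benjamini-Hochberg adjusted p below 0.05 over all genes tested). Over all genes tested, 1.28% passed this threshold, 0.903% as higher in LRCs and 0.379% as lower. At an unadjusted p below 0.05, 8 members were higher and 2 were lower, against 8.89% and 9.53% of all genes (18.4% in either direction). The 8 were *Ust*, *Sulf2*, the sulfotransferases *Chst12*, *Chst3*, *Ndst1* and *Hs6st1*, and the chain synthesis genes *Chpf* and *Extl3*, and the 2 were the sulfate transporter *Slc26a2* and the PAPS synthase *Papss2*. With DESeq2 and the same block, 6 members were higher (6.16% of all genes with an adjusted p) and 1 was lower (12.3% in either direction), and with limma-voom 8 passed (9.91% of all genes). Without the block, 0 members passed in edgeR, and 5 had an unadjusted p below 0.05. The median log2 fold change (LRC over non-LRC) of the 39 was 0.13, with a range from -1.12 to 1.92, beside -0.10 over all genes. The level was higher in LRCs in all 3 experiments for 14 members (20.4% of all genes) and lower in all 3 for 7 (26.4% of all genes).

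By step, the median log2 fold change was -0.30 for *Ugdh*, the 1 gene of nucleotide sugar supply, and -0.60 for sulfate supply, -0.04 for the linker, 0.09 for the chondroitin chain, 0.11 for chondroitin and dermatan sulfation, 0.22 for the heparan chain, 0.63 for heparan modification, 1.13 for the endosulfatases and 0.22 for hyaluronan synthesis. All 4 supply genes had negative fold changes, and all 7 tested genes of heparan modification had positive ones in this fit (*Hs2st1*, at 0.02, turned negative without the block, in limma-voom and without experiment 2 or 3), whereas 6038 of the 13728 genes tested were positive. These medians describe a few genes each and were not tested as groups.

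**Figure D1:**
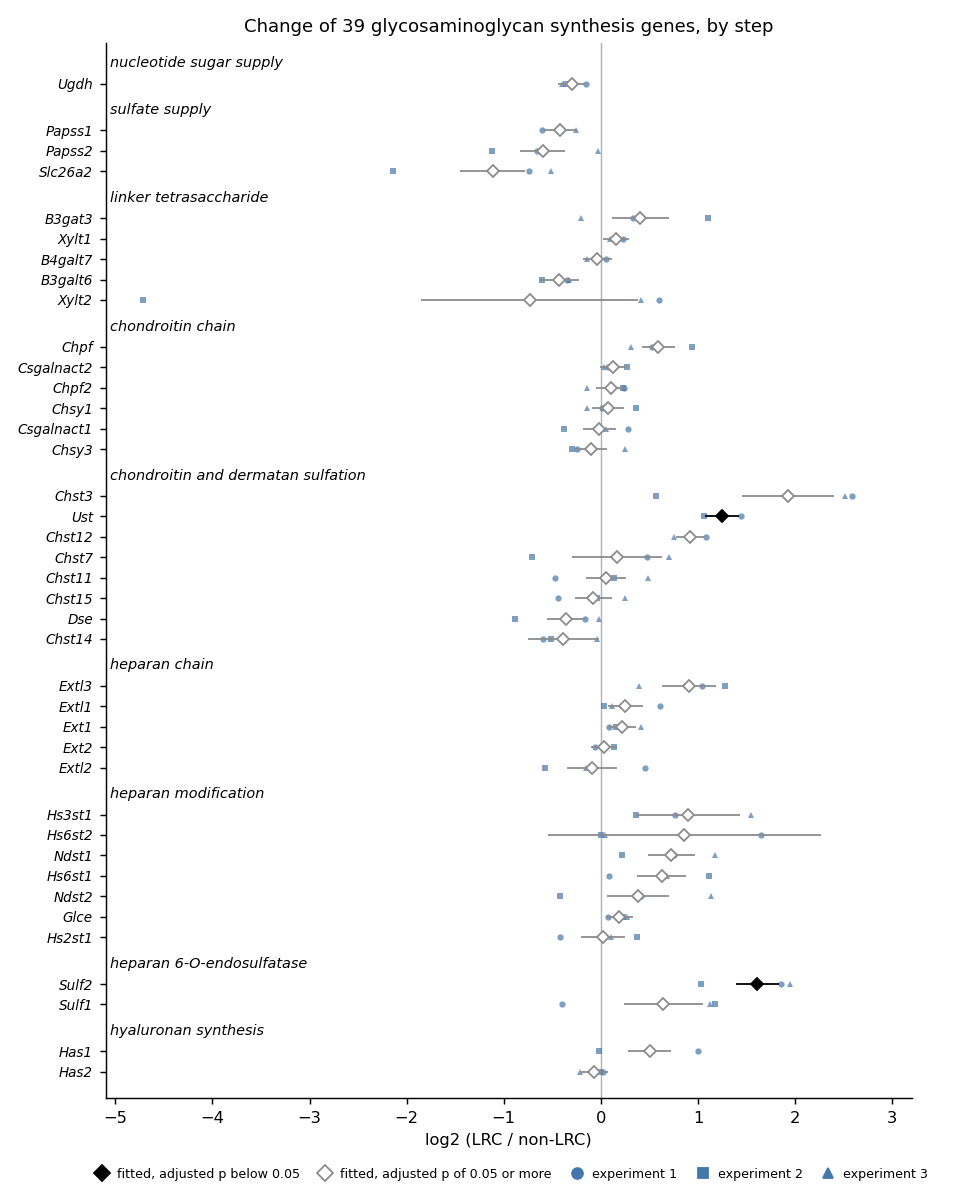
Log2 (LRC / non-LRC) on the x axis for the 39 tested genes, grouped by step; diamonds are fitted values with bars of 1 standard error, filled where the adjusted p was below 0.05, and blue symbols are the 3 experiments. The 2 filled diamonds are *Ust* at 1.25 and *Sulf2* at 1.61, and the 4 supply genes at the top all lie to the left of 0.

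The promoters of 5 members are shown for context, as the bases before the outermost RefSeq start on GRCm38.p6, 5′ to 3′ on the strand of the gene. *Ust* and *Sulf2* are shown because they passed the test, *Chst12* and *Chst3* as the sulfotransferases with the next smallest unadjusted p, and *Papss2* as the supply gene of highest level. The windows are chr10:8518826-8519075 (minus strand) for *Ust*, chr2:166155684-166155933 (minus) for *Sulf2*, chr5:140505359-140505549 (plus, 191 bases, ending where an annotated exon begins) for *Chst12*, chr10:60219261-60219510 (minus) for *Chst3* and chr19:32595465-32595714 (plus) for *Papss2*. Capitals mark matches on either strand to the GC box GGGCGG or the TATA box TATAAA.
Ust: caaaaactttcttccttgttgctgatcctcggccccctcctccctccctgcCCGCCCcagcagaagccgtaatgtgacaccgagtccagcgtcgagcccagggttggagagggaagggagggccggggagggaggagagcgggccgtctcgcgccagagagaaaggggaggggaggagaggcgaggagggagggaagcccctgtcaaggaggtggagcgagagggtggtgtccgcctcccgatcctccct
Sulf2: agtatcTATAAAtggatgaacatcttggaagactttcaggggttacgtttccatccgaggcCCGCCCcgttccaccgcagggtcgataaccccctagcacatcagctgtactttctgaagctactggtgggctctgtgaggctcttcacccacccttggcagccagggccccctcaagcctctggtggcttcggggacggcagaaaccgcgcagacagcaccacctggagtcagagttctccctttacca
Chst12: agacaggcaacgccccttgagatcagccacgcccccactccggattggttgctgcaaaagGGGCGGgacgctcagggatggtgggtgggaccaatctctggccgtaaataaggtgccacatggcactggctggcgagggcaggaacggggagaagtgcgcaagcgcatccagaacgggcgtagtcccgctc
Chst3: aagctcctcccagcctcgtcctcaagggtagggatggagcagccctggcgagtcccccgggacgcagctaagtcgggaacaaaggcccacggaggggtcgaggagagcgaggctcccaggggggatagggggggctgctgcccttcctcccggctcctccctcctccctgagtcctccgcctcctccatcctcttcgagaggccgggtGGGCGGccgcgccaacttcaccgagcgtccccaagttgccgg
Papss2: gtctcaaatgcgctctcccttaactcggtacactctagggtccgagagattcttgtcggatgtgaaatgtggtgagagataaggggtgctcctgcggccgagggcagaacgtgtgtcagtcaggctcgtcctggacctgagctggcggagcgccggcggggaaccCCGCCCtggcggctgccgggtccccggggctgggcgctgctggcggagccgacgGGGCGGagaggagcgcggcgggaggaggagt
The GC box was present once in 4 of the windows and 2 times in that of *Papss2*, and 32.7% of 32851 RefSeq windows of 250 bases held at least 1. The TATA box sequence was present only in the window of *Sulf2*, beside 12.4% of all windows. This match lies near the 5′ end of the window, far from the RefSeq start. The TCF/LEF core CTTTGA was found in none of the 5 and in 13.8% of all windows. GC content was between 57.2% (*Sulf2*) and 69.6% (*Chst3*), and the median of all windows was 52.4%. Such matches are descriptions of sequence, and an entry was present for 32 of the 42 genes.

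The supply genes act first in synthesis and included the 2 members of highest level per length. *Ugdh* (UDP-glucose dehydrogenase) makes UDP-glucuronic acid, the acidic sugar of chondroitin, heparan and hyaluronan. Its level in experiments 1, 2 and 3 was 808, 820 and 856 CPM in LRCs and 895, 1048 and 1127 CPM in non-LRCs. The groups did not overlap, with every LRC library below every non-LRC library, as was the case for 10.3% of all genes tested. The difference did not pass the test, with a log2 fold change of -0.30 ± 0.14 (SE, n = 3 experiments), a 95% confidence interval from -0.64 to 0.04 and an adjusted p of 0.329 in edgeR.

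*Papss2*, the main PAPS synthase of cartilage, had 1485, 970 and 1696 CPM in LRCs and 2339, 2105 and 1727 CPM in non-LRCs. Each LRC library lay below its partner, but in experiment 3 by only 0.03 on the log2 scale, and the groups were separated by the narrow gap between 1696 and 1727 CPM. The fitted difference was -0.60 ± 0.23 (SE; adjusted p = 0.248 in edgeR), and it was -0.34 without experiment 2. *Papss1*, the other PAPS synthase, had 27.8 to 46.3 CPM in LRCs and 42.4 to 55.3 CPM in non-LRCs, with a log2 fold change of -0.42 ± 0.17 (SE; adjusted p = 0.273 in edgeR). Per length, *Papss2* had the highest mean level of the 42 genes (462 RPKM, CPM per kilobase of exon, against 13.7 RPKM for *Papss1*). The log2 ratio of *Papss2* to *Papss1* was 5.74, 4.83 and 5.19 in LRCs and 5.79, 5.53 and 4.96 in non-LRCs, and these ranges overlapped.

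*Slc26a2*, the sulfate transporter of the plasma membrane, had 175, 40.2 and 206 CPM in LRCs and 292, 178 and 294 CPM in non-LRCs. It was lower in LRCs in all 3 experiments, by 0.74, 2.14 and 0.51 on the log2 scale. The fitted log2 fold change of -1.12 ± 0.33 (SE) did not pass the edgeR test (adjusted p = 0.158), although it passed in DESeq2 with the block (adjusted p = 0.0053). Without experiment 2, whose LRC library was by far the lowest, it was -0.62 (edgeR adjusted p = 0.0682), and without experiment 3 it was -1.42 and passed (edgeR adjusted p = 0.0344). Summed over the 3 genes of sulfate supply, the level was 422, 275 and 488 RPKM in LRCs and 666, 595 and 506 RPKM in non-LRCs, so that every LRC library was below every non-LRC library. Most of this sum was *Papss2*, with a mean of 372 of 395 RPKM in LRCs and 553 of 589 RPKM in non-LRCs. The sum therefore largely repeats the separation of *Papss2*, whereas *Slc26a2* itself overlapped between the groups.

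The other genes of this supply route that were listed for comparison, 17 in number and all tested, had a median log2 fold change of -0.33. Of these, 13 were negative and 4 positive, beside 7690 negative and 6038 positive of the 13728 genes tested. None passed the adjusted threshold in edgeR. At an unadjusted p below 0.05, 5 were lower and 1 was higher (9.53% and 8.89% of all genes). *Slc35b2*, which carries PAPS into the Golgi, had 90.2, 75.6 and 103 CPM in LRCs and 130.1, 163 and 193 CPM in non-LRCs (fitted log2 fold change -0.85 ± 0.17 (SE), adjusted p = 0.0765 in edgeR). *Ugp2*, which makes the UDP-glucose used by *Ugdh*, had 79.6, 64.4 and 97.7 CPM in LRCs and 108.5, 163 and 199 CPM in non-LRCs (-0.94 ± 0.20, adjusted p = 0.0898 in edgeR). Neither gene overlapped between the groups, and 10.3% of all genes tested were separated with LRCs below. *Gfpt2*, an enzyme at the entry of the hexosamine pathway, stood on the other side, with 1357, 855 and 1396 CPM in LRCs and 667, 634 and 848 CPM in non-LRCs (0.73 ± 0.17, adjusted p = 0.0997 in edgeR). In DESeq2 with the block, 3 of the 17 passed as lower and 1 as higher in LRCs (12.3% of all genes in either direction). They included *Slc35b2* and *Ugp2*, lower, and *Gfpt2*, higher. Growth plate chondrocyte markers also lay lower in LRCs in all 3 experiments for 10 of 12 genes (26.4% of all genes). None of the 12 passed in edgeR, and 4 passed as lower in DESeq2 with the block (*Hapln1*, *Col9a3*, *Matn3* and *Matn1*). Their part in the supply values was not tested.

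**Figure D2:**
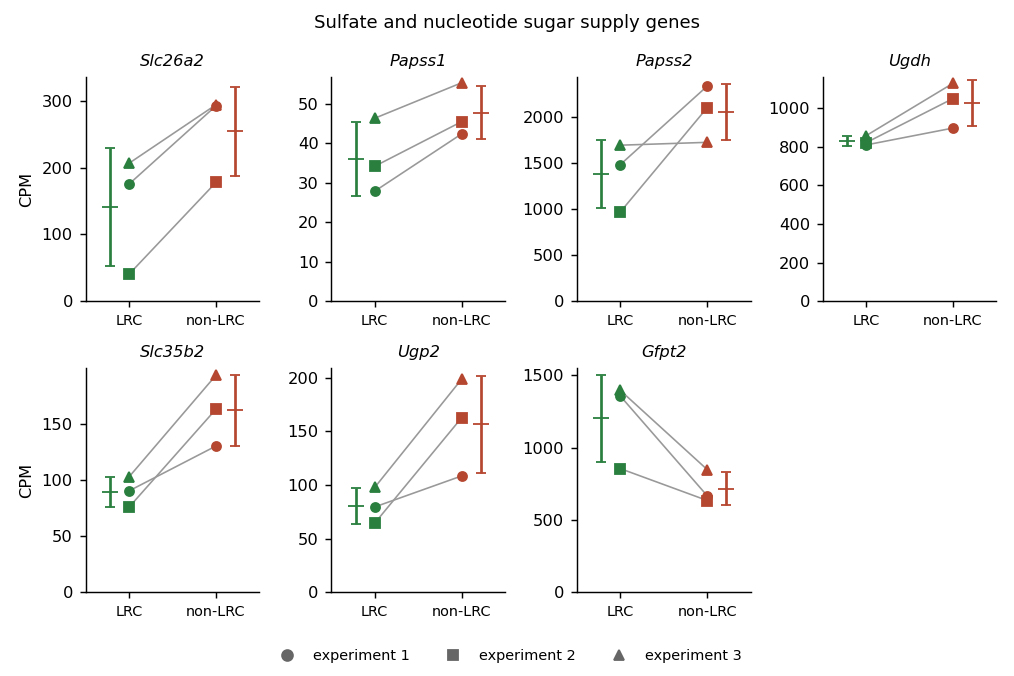
CPM on the y axis (from 0) for 7 supply genes in the LRC and non-LRC libraries; lines join libraries of 1 experiment, and the outer bars are mean ± s.d. Lines fall toward LRCs for *Slc26a2*, *Papss1*, *Papss2*, *Ugdh*, *Slc35b2* and *Ugp2* in all 3 experiments and rise toward LRCs for *Gfpt2*.

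None of the 5 linker enzymes passed the test or had an unadjusted p below 0.05 in edgeR, and none passed in DESeq2 or limma-voom with the block. *Xylt1* and *Xylt2* start the linker by adding xylose to the core protein, *B4galt7* and *B3galt6* add the galactoses and *B3gat3* adds the glucuronic acid. *B4galt7* had the highest level per length (21.1 RPKM), with 65.4, 63.4 and 52.4 CPM in LRCs and 63.0, 64.7 and 57.7 CPM in non-LRCs, which overlapped. Its log2 fold change was -0.04, with a 95% confidence interval from -0.40 to 0.33 (edgeR adjusted p = 0.918). The fitted values of *Xylt1*, *B3galt6* and *B3gat3* lay between -0.43 and 0.41, with adjusted p of 0.340 or more in edgeR. *B3gat3*, at 0.41, was 0.066 without experiment 2. *B3galt6* was lower and *Xylt1* higher in all 3 experiments. *Xylt2* was the widest, since the LRC library of experiment 2 held 5 counts of it (0.239 CPM) while the other 5 libraries lay between 7.07 and 14.6 CPM. Its fitted value was -0.73 ± 1.12 (SE), and it was 0.51 without experiment 2. Summed levels of the 5 genes were 48.3 to 65.3 RPKM in LRCs and 48.7 to 59.0 RPKM in non-LRCs.

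Among the 6 genes of the chondroitin chain, none passed the edgeR threshold, and 1, *Chpf*, had an unadjusted p below 0.05. *Csgalnact1* and *Csgalnact2* add the first N-acetylgalactosamine, *Chsy1* and *Chsy3* are chondroitin synthases, and *Chpf* and *Chpf2* are their polymerizing partners. *Csgalnact2* had the highest level per length (47.2 RPKM), followed by *Csgalnact1* (44.5 RPKM) and *Chpf* (43.3 RPKM). *Csgalnact2* had 266, 281 and 257 CPM in LRCs and 252, 233 and 251 CPM in non-LRCs, with no overlap but a small difference (log2 fold change 0.13, 95% confidence interval from -0.21 to 0.46, edgeR adjusted p = 0.674), and 0.05 without experiment 2. *Chpf* had 246, 187 and 166 CPM in LRCs and 170.5, 97.7 and 134 CPM in non-LRCs. It was higher in LRCs in each experiment while the groups overlapped, by 0.59 ± 0.17 on the log2 scale (SE; adjusted p = 0.149 in edgeR and 0.0249 in DESeq2 with the block). The other 4 genes had fitted values between -0.10 and 0.10 and adjusted p of 0.764 or more in edgeR. Of the exons of *Chpf2*, 44.1% overlap *Smarcd3* on the opposite strand, and its counts are uncertain because the strand setting of the counting is not stated.

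Of the 6 members whose LRC libraries all lay above the non-LRC libraries, 3 belonged to chondroitin and dermatan sulfation (*Ust*, *Chst12* and *Chst3*), and over all genes tested 8.4% were separated in this way. *Ust* had 77.7, 59.0 and 48.2 CPM in LRCs and 28.6, 28.3 and 20.4 CPM in non-LRCs, with mean ± s.d. of 61.7 ± 14.9 and 25.8 ± 4.64. The lowest LRC library (48.2 CPM) lay well above the highest non-LRC library (28.6 CPM). The log2 fold change was 1.25 ± 0.18 (SE, n = 3 experiments), with a 95% confidence interval from 0.82 to 1.68 (edgeR adjusted p = 0.0440). The 3 experiments gave 1.44, 1.06 and 1.24. The call was lost without experiment 1 (1.15, edgeR adjusted p = 0.212) and without experiment 3 (1.27, adjusted p = 0.0530). *Ust* lies on chromosome 10 (8204756 to 8518825, minus strand, GRCm38), as do *Chst3*, *Chst11* and *Dse*.

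*Chst12*, a chondroitin 4-O-sulfotransferase, had 124.5, 132.5 and 103 CPM in LRCs and 58.7, 70.0 and 60.9 CPM in non-LRCs, without overlap. Its log2 fold change of 0.92 ± 0.15 (SE) lay just beyond the threshold (edgeR adjusted p = 0.0538), and it passed in DESeq2 with the block (adjusted p = 1.06e-05) and in edgeR without a filter on low counts (adjusted p = 0.0439). *Chst3*, a chondroitin 6-O-sulfotransferase, had 41.6, 13.2 and 25.9 CPM in LRCs and 6.89, 8.90 and 4.51 CPM in non-LRCs. Its groups did not overlap either, but the difference was 2.59 and 2.51 in experiments 1 and 3 and 0.57 in experiment 2 on the log2 scale. The fit gave 1.92 ± 0.47 (SE), the largest fold change of the 39, with an adjusted p of 0.115 in edgeR and 6.56e-04 in DESeq2 with the block, and without experiment 2 it was 2.56 (edgeR adjusted p = 0.0038).

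The remaining 5 tested genes of this step overlapped between the groups. *Dse*, the epimerase that turns chondroitin into dermatan, had the highest level per length of this step (41.5 RPKM), with 242, 119.9 and 191 CPM in LRCs and 272, 221 and 194 CPM in non-LRCs, which overlapped (log2 fold change -0.35 ± 0.20 (SE), edgeR adjusted p = 0.416). Without experiment 2 it was -0.09. *Chst11*, the principal 4-O-sulfotransferase of cartilage, followed with 38.9 RPKM, close to *Chst12* at 38.8 RPKM. Its difference between the groups was 0.05 on the log2 scale, with a 95% confidence interval from -0.46 to 0.56. *Chst7*, *Chst14* and *Chst15* had fitted values between -0.39 and 0.17 and adjusted p of 0.629 or more in edgeR, and 17.9% of the exons of *Chst15* overlap a gene model on the opposite strand. *Chst13* had 16 counts in 1 non-LRC library and 0 in the other 5, and was not tested.

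**Figure D3:**
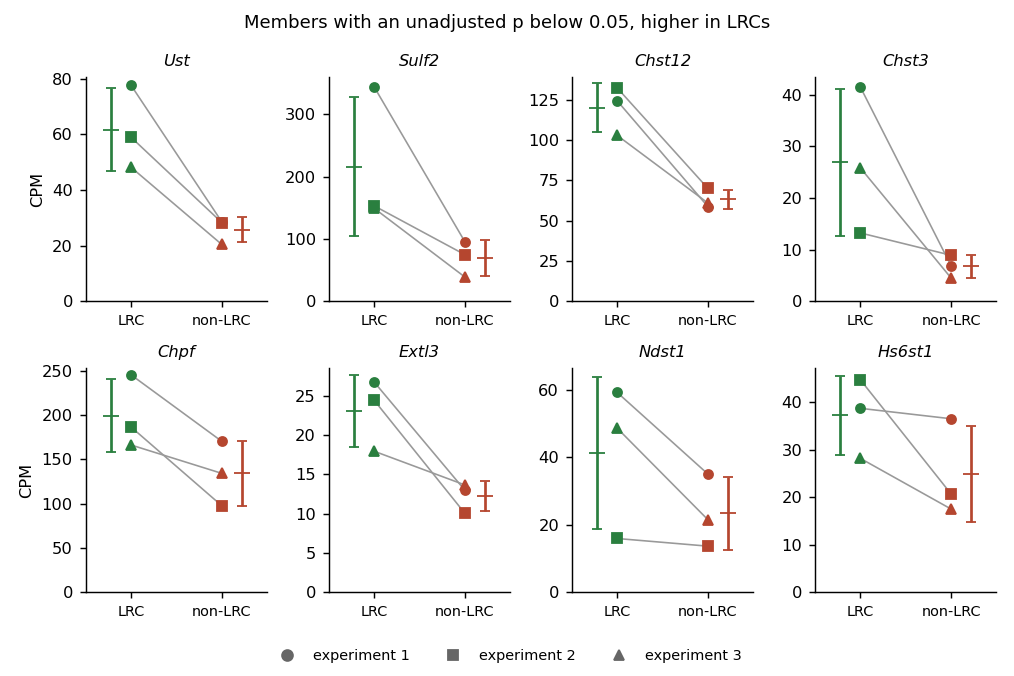
CPM on the y axis (from 0) for the 8 members with an unadjusted p below 0.05 and a higher level in LRCs; lines join libraries of 1 experiment, and the outer bars are mean ± s.d. The groups do not overlap for *Ust*, *Sulf2*, *Chst12*, *Chst3* and *Extl3*, whereas they overlap for *Chpf*, *Ndst1* and *Hs6st1*.

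Within a step of synthesis or sulfation, the ratio of 1 enzyme to another was followed in each library. Of 10 such pairs, 7 had at least 10 counts of both genes in every library. The log2 ratio of *Chst3* to *Chst11*, a 6-O- and a 4-O-sulfotransferase, was -2.13, -4.55 and -2.57 in LRCs and -5.18, -4.98 and -4.59 in non-LRCs. All LRC values lay above all non-LRC values, although in experiment 2 the shift was 0.43, against 3.06 and 2.02 in experiments 1 and 3 (mean 1.84 ± 1.32, s.d.). The groups were separated by the narrow gap between -4.55 (LRCs, experiment 2) and -4.59 (non-LRCs, experiment 3). This was the only 1 of the 7 pairs whose groups did not overlap. Among single genes tested, 8.4% were separated with LRCs above and 10.3% with LRCs below. The ratios of *Ext1* to *Ext2* and of *Ndst1* to *Ndst2* were also higher in LRCs in all 3 experiments, by 0.18 ± 0.18 and 0.34 ± 0.30 (mean ± s.d.), and the other 4 pairs had mixed signs. With 3 experiments an exact sign-flip test cannot reach a p below 0.05, and no test was run on the ratios. The separation depended on the partner. Against *Chst12*, another 4-O-sulfotransferase, a pair added after the values were seen, the log2 ratio of *Chst3* was -1.58, -3.32 and -1.99 in LRCs. In non-LRCs this ratio was -3.08, -2.97 and -3.75. The groups overlapped, with shifts of 1.503, -0.35 and 1.76.

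**Figure D4:**
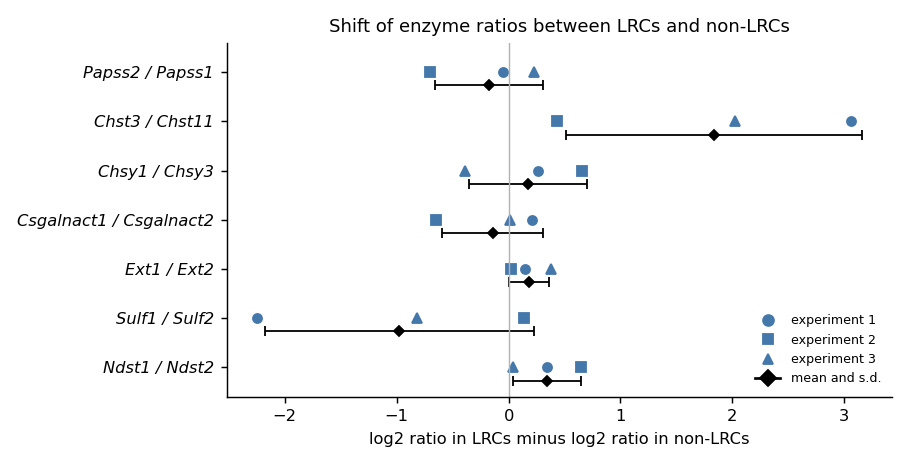
Shift of the log2 ratio of enzyme pairs between LRCs and non-LRCs on the x axis, for the 7 pairs with at least 10 counts of both genes in every library; blue symbols are experiments and black diamonds are means with bars of 1 s.d. *Chst3* over *Chst11* has shifts of 3.06, 0.43 and 2.02, and the points of *Sulf1* over *Sulf2* fall on both sides of 0.

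In the heparan chain, *Extl3* adds the first N-acetylglucosamine that commits the linker to heparan sulfate, and *Ext1* and *Ext2* form the polymerase. *Extl3* had 26.8, 24.5 and 18.0 CPM in LRCs and 12.99, 10.1 and 13.7 CPM in non-LRCs, without overlap. Its log2 fold change was 0.91 ± 0.27 (SE; adjusted p = 0.162 in edgeR and 0.0360 in DESeq2 with the block). *Ext2* had the highest level per length (26.1 RPKM), with 216, 151 and 211 CPM in LRCs and 225, 138 and 205 CPM in non-LRCs. These values overlapped in full (log2 fold change 0.04, 95% confidence interval from -0.29 to 0.36, edgeR adjusted p = 0.910), and the fitted value was -0.01 without experiment 2. *Ext1* and *Extl1* were higher in LRCs in all 3 experiments by fitted values of 0.22 and 0.25, *Extl2* had -0.09, and none of these 3 passed (adjusted p of 0.469 or more in edgeR).

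The 7 tested enzymes of heparan modification had fitted values from 0.02 (*Hs2st1*) to 0.90 (*Hs3st1*), and none passed the edgeR threshold, with 2 at an unadjusted p below 0.05. *Ndst1* and *Ndst2* replace acetyl groups with N-sulfate, *Glce* is the epimerase that makes iduronic acid, and *Hs2st1*, *Hs6st1*, *Hs6st2* and *Hs3st1* add O-sulfate. *Ndst1* had 59.2, 15.9 and 48.6 CPM in LRCs and 35.0, 13.6 and 21.5 CPM in non-LRCs, so that it was higher in LRCs within each experiment while the groups overlapped. The log2 fold change was 0.72 ± 0.24 (SE; edgeR adjusted p = 0.196), and without experiment 2 it was 0.97 (edgeR adjusted p = 0.0386). *Hs6st1* had 38.7, 44.8 and 28.2 CPM in LRCs and 36.5, 20.7 and 17.5 CPM in non-LRCs. Its experiments gave 0.08, 1.11 and 0.69, and the fit gave 0.63 ± 0.25 (SE; edgeR adjusted p = 0.267), or 0.38 without experiment 2. *Glce* had the highest level per length (22.8 RPKM), with 196, 123 and 177 CPM in LRCs and 187, 104.7 and 147 CPM in non-LRCs (fitted log2 fold change 0.19, 95% confidence interval from -0.14 to 0.52). *Hs3st1*, at 1.35 to 6.64 CPM, was also higher in LRCs in all 3 experiments (0.90 ± 0.54 (SE), edgeR adjusted p = 0.431), *Ndst2* and *Hs2st1* had mixed signs, and *Hs6st2* had 0 counts in both libraries of experiment 2. *Ndst3* had 14 counts in 1 non-LRC library and 0 in the others, and was not tested.

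The extracellular endosulfatases act after synthesis and remove 6-O-sulfate, the group that *Hs6st1* and *Hs6st2* add. *Sulf2* had 344, 153 and 149 CPM in LRCs and 95.5, 74.7 and 38.8 CPM in non-LRCs, with mean ± s.d. of 216 ± 112 and 69.7 ± 28.7. Every LRC library lay above every non-LRC library. The log2 fold change was 1.61 ± 0.22 (SE), with a 95% confidence interval from 1.08 to 2.15 (edgeR adjusted p = 0.0391), and the experiments gave 1.85, 1.04 and 1.94. It was 1.90 without experiment 2 (edgeR adjusted p = 0.0038) and 1.49 without experiment 1, where the call was lost (edgeR adjusted p = 0.127). *Sulf1*, its paralog, had 7.24, 18.9 and 18.8 CPM in LRCs and 9.54, 8.35 and 8.61 CPM in non-LRCs, lower in LRCs in experiment 1 and higher in the other 2 (0.64 ± 0.41 (SE), edgeR adjusted p = 0.461), with 0.36 without experiment 2. Per length, *Sulf2* had a mean of 24.3 RPKM and *Sulf1* of 1.06 RPKM. The summed level of both was 27.1 to 59.3 RPKM in LRCs and 7.37 to 17.1 RPKM in non-LRCs. *Sulf2* lies on chromosome 2 (166073089 to 166155663, minus strand, GRCm38), and 2.62% of its exons overlap *Ncoa3* on the opposite strand.

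The higher levels of *Ust* and *Sulf2* in LRCs were accompanied by the higher levels of the superficial articular and synovial markers given above. Among LRC libraries, *Prg4* was largest in experiments 1 and 3 (1017, 109.4 and 869 CPM in LRCs and 29.5, 3.22 and 6.36 CPM in non-LRCs), as was *Cilp* (970, 299 and 1096 CPM in LRCs). *Thbs4* was also lowest in experiment 2, by a smaller margin (66.1, 45.5 and 50.6 CPM in LRCs). Not all of the list shared this pattern. *Clu* was about level over the experiments (974, 982 and 931 CPM in LRCs). *Dpt* was largest in experiment 2 (5.35, 17.7 and 9.93 CPM in LRCs), as was *Tnxb* (0.882, 5.21 and 1.72 CPM in LRCs). The osteoblast markers summed to 1465 to 3363 CPM in LRCs and 1934 to 2856 CPM in non-LRCs, with *Col1a1* higher and *Smpd3* lower in LRCs past the threshold. Skeletal muscle markers summed to at most 10.4 CPM in any LRC library and 15.5 CPM in any non-LRC library, with *Pax7* at 0 in all libraries, and leukocyte and erythroid markers to at most 10.8 and 12.3 CPM, with *Hba-a1* at 0. Endothelial and pericyte markers reached at most 0.573 and 2.05 CPM. By in situ hybridization, the study detected *Prg4* transcripts in resting chondrocytes, more faintly than at the joint surface. No other marker of the superficial list was examined by it in this way. From cell counts before and after collagenase, it reported that nearly all tdTomato+ cells set free were growth plate chondrocytes. That report covered all tdTomato+ cells set free and was not given for the H2B-GFP(high) gate alone. The part of the cell types listed above in the values of *Ust*, *Sulf2*, *Chst12* and *Chst3* was not tested.

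Hyaluronan is made at the plasma membrane by *Has1*, *Has2* and *Has3*. *Has2*, the main synthase of cartilage, had the highest level per length of the 3 (29.4 RPKM), with 144, 70.3 and 148 CPM in LRCs and 141, 71.0 and 172 CPM in non-LRCs. The values followed the experiment and not the group, with a log2 fold change of -0.07 and a 95% confidence interval from -0.41 to 0.27 (edgeR adjusted p = 0.832). *Has1* had 135.9, 47.0 and 105.1 CPM in LRCs and 68.2, 47.7 and 72.9 CPM in non-LRCs, higher in LRCs in experiments 1 and 3 and about equal in experiment 2 (0.50 ± 0.22 (SE), edgeR adjusted p = 0.301), with 0.76 without experiment 2. *Has3* had 33 counts in the LRC library of experiment 2, 2 in the non-LRC library of experiment 3 and 0 elsewhere, and was not tested.

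**Figure D5:**
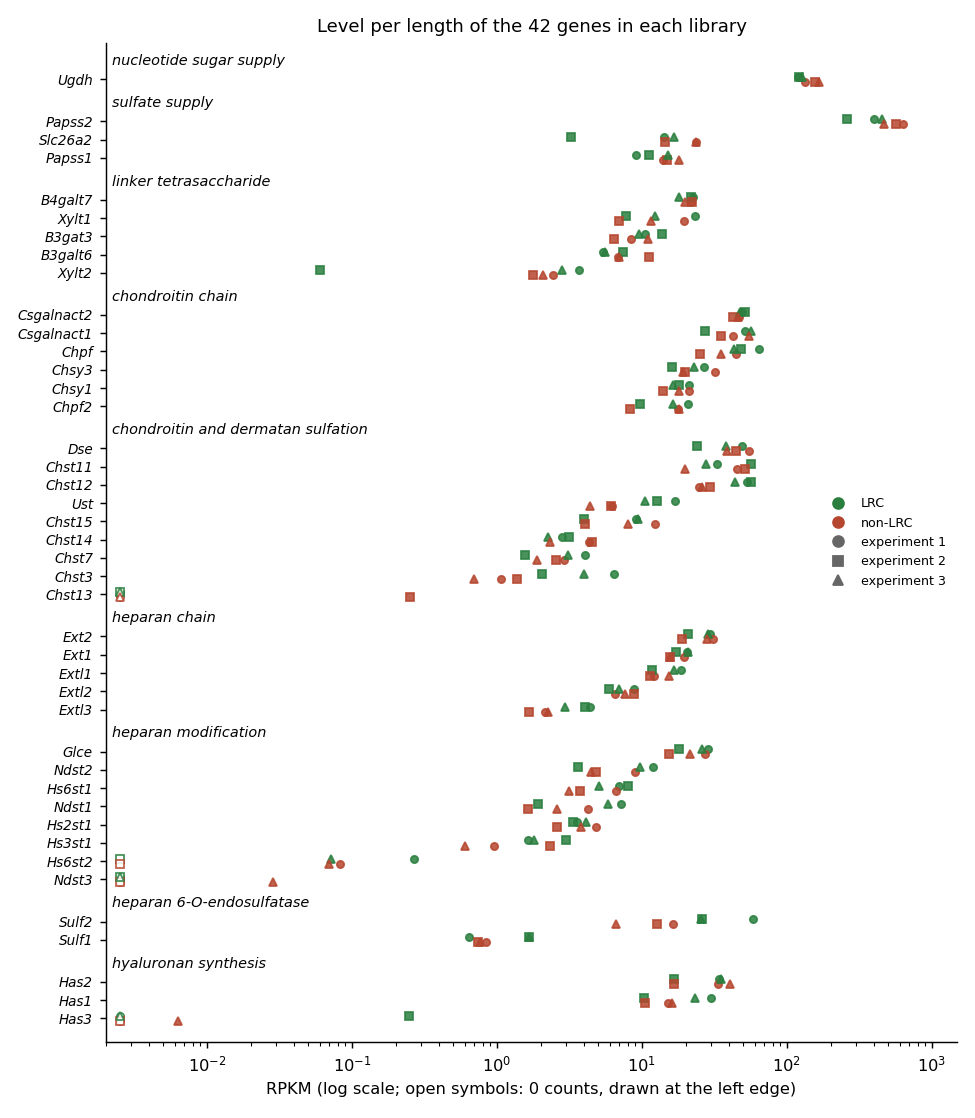
RPKM on the x axis (log scale) for the 42 genes in each of the 6 libraries, by step; open symbols at the left edge mark 0 counts. *Papss2* (mean 462 RPKM) and *Ugdh* (137 RPKM) lie to the right of all other genes, and *Chst13*, *Ndst3*, *Has3* and *Hs6st2* lie at the left.

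No further gene of these pathways passed the edgeR test. Of 60 in the table, 51 were tested, and at an unadjusted p below 0.05, 7 were higher and 7 lower (8.89% and 9.53% of all genes). In DESeq2 with the block, 4 were higher and 4 lower (12.3% of all genes in either direction), and limma-voom with the block gave 4 and 3 (9.91%). Among 9 genes of hyaluronan turnover and receptors, *Cd44*, the main hyaluronan receptor, had 597, 760 and 418 CPM in LRCs and 482, 432 and 198 CPM in non-LRCs, overlapping but higher in each experiment (log2 fold change 0.73 ± 0.19 (SE), edgeR adjusted p = 0.120). *Tmem2*, a cell surface protein linked to hyaluronan breakdown, had 126.5, 25.4 and 84.9 CPM in LRCs and 30.5, 19.2 and 36.5 CPM in non-LRCs (1.23 ± 0.32, edgeR adjusted p = 0.127). *Tnfaip6*, which binds hyaluronan, had 33.2, 33.7 and 53.2 CPM in LRCs and 38.6, 64.2 and 81.8 CPM in non-LRCs (-0.59 ± 0.20, edgeR adjusted p = 0.196).

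Among 15 tested genes of sulfated chain degradation, 11 had positive and 4 negative fold changes, with a median of 0.30. Over all 13728 genes tested, 6038 were positive and 7690 negative. *Galns*, a lysosomal sulfatase of chondroitin and keratan sulfate, had 24.8, 44.4 and 16.0 CPM in LRCs and 13.1, 10.02 and 10.1 CPM in non-LRCs, without overlap (1.24 ± 0.35 (SE), edgeR adjusted p = 0.145). *Hexa*, a subunit of lysosomal hexosaminidase, had 159.6, 169 and 151 CPM in LRCs and 124, 130.3 and 111 CPM in non-LRCs (0.39 ± 0.13, edgeR adjusted p = 0.196). On the other side was *Hpse*, the heparanase that cuts heparan sulfate chains, which is named here after its values were seen, with 0.488, 0 and 0.605 CPM in LRCs and 1.48, 1.96 and 5.77 CPM in non-LRCs. The groups did not overlap, and the fitted log2 fold change was -3.41 ± 1.301 (SE; adjusted p = 0.246 in edgeR and 0.0185 in DESeq2 with the block), at levels near the limit of detection in LRCs. Of the 6 keratan sulfate genes tested, *B3gnt2*, which extends the keratan backbone, had 141.5, 107.9 and 126 CPM in LRCs and 84.3, 95.8 and 86.9 CPM in non-LRCs (0.49 ± 0.17, edgeR adjusted p = 0.207). The 4 further chondroitin and heparan modifiers tested had a median of -0.28, with none at an unadjusted p below 0.05.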

How the data were processed

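RNA was measured in 6 libraries, and groups and experiments were taken from the sample labels. The authors amplified cDNA from total RNA, aligned single-end reads to mm10 (GRCm38) with TopHat2 2.0.13 and Bowtie2 2.2.1, as the submitters' processing notes name them, and counted non-ambiguously mapped reads with HTSeq. The gene annotation and strand setting are not given in the sources used here. The authors deposited raw counts per gene, without normalization, which were the input of all analyses. Their tables of counts divided by size factors and of rlog values were not used. The 42 members and the other lists were chosen with earlier results of these data known.

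Counts were fitted in R 4.3.3 with edgeR 4.0.16 (TMM, filterByExpr at its minimum count of 10 and minimum total count of 15, quasi-likelihood test, experiment as a block as in the study's paired model), with Benjamini-Hochberg adjustment over 13728 genes. The scripts were tested on simulated data. Libraries of 1 experiment deviated together from their group means (Pearson r of 0.197, 0.288 and 0.336 across genes). Log2 CPM used a prior count of 2. RPKM used exon lengths of GENCODE vM21, to which all but 464 of the 23159 symbols were matched. Chi-square statistics per gene between libraries were 193 or more, and no pair of libraries agreed within sampling noise. Values in each library are given for members with an adjusted p below 0.05 in edgeR or DESeq2, with an unadjusted edgeR p below 0.05, or with the highest RPKM of a step, and for at most 3 genes of each further list with the smallest unadjusted p below 0.05, of which 1 gene is not reported here. Alternatives were no block, DESeq2 1.42.0 and limma-voom (limma 3.58.1) with the block, DESeq2 size factors, other filters on low counts, a prior count of 0.5, each experiment left out and, added after the values were seen, *Chst12* in place of *Chst11* in 1 ratio.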

Additional observations from a re-analysis of the deposited data

How the results depend on the processing

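Of the members, 2 passed the edgeR test, and the count was 0 without the replicate block, 7 in DESeq2, 8 in limma-voom and 4 with at least 10 counts in every library, and 0 (without experiment 1) to 5 (without experiment 2) with an experiment left out. At an unadjusted p below 0.05, edgeR had 10 members with the block, 5 without it and 8 without experiment 1. The 2 that passed without experiment 3 were *Sulf2* and *Slc26a2*. These settings also changed the calls over all genes, from 176 to 1 without the block, to 1692 in DESeq2 (12.3% of genes with an adjusted p), to 1361 in limma-voom (9.91%), to 751 with the stricter filter, and to between 35 and 782 with an experiment left out. Members passing at 2-fold or more numbered 2, with 0 without the block, 4 in DESeq2 and 0 to 3 with an experiment left out. Without the pairing, *Ust* was 1.26 (adjusted p = 0.234) and *Sulf2* 1.63 (adjusted p = 0.301) on the log2 scale. The members that passed in DESeq2 were *Ust*, *Sulf2*, *Chst12*, *Chst3*, *Chpf* and *Extl3*, higher in LRCs, and *Slc26a2*, lower, and limma-voom added *Ndst1*. The cause of these differences was not tested.

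The median log2 fold change of the members was 0.13, and was 0.17 in limma-voom and 0.10 to 0.16 with an experiment left out. That of the supply genes stayed between -0.68 and -0.39. The sign turned for 11 genes, all far from the threshold. *Xylt2*, at -0.73, had 5 counts in 1 library, and the other 10 had fitted values between -0.09 and 0.17. Without the block, *Xylt2* became 0.059, *Csgalnact1* 0.032 and *Hs2st1* -0.019, and in limma-voom *Xylt2* became 0.37, *Csgalnact1* 0.022, *Extl2* 0.061 and *Hs2st1* -0.11. With an experiment left out, ranges crossing 0 were -1.98 to 0.51 for *Xylt2*, -0.088 to 0.034 for *B4galt7*, -0.17 to 0.17 for *Csgalnact1*, -0.066 to 0.20 for *Chsy1*, -0.091 to 0.59 for *Chst7*, -0.14 to 0.31 for *Chst11*, -0.22 to 0.10 for *Chst15*, -0.36 to 0.15 for *Extl2*, -0.010 to 0.079 for *Ext2*, -0.16 to 0.24 for *Hs2st1* and -0.12 to 0.027 for *Has2*. DESeq2, DESeq2 size factors and both filters kept the sign of every member they tested. *Chst13*, *Ndst3* and *Has3* had 0 counts in most libraries, with at most 16, 14 and 33 counts in any library.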
